A study of Mus musculus with 30 samples.

Results

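Circadian clock genes were followed in the ovaries of adult CD1 female mice, an outbred stock, after dosing with phthalate plasticizers. The 10 genes are the rows of the deposited expression table with the symbols Arntl, Clock, Per1, Per2, Per3, Cry1, Cry2, Nr1d1, Nr1d2 and Dbp, of 18022 genes in all. Every one of the 10 passed the minimum mean level of 0 log2 CPM that 14740 genes passed (CPM, counts scaled to a common library total; all levels below are log2 CPM unless stated). Dosing lasted 10 days. Control mice were given the vehicle. One plasticizer, di(2-ethylhexyl) phthalate, named DEHP below, had daily doses of 20 and 200 ug/kg, and the other, diisononyl phthalate or DiNP, of 20 and 100 ug/kg. Ovaries were collected whole, either when dosing ended (0 months) or after 3 further months. The 5 treatments and 2 time points give 10 groups of 3 libraries, 30 in all. The labels give neither the hour of collection nor the stage of the estrous cycle, and do not say whether the 3 libraries of a group come from separate mice, so p-values measure the spread between these libraries only.

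In the circadian clock, the proteins ARNTL (also called BMAL1) and CLOCK bind E-box sequences as a pair and switch on the Per and Cry genes. PER and CRY proteins return to the nucleus and inhibit that pair, which closes a daily loop. The pair also switches on Nr1d1 and Nr1d2, whose products REV-ERB alpha and beta repress Arntl, and Dbp, a transcription factor that acts on D-box sequences. Transcripts of this loop peak at different hours, with Arntl in opposite phase to Nr1d1 and Dbp. In the ovary the clock runs in granulosa, theca and luteal cells, where it is known for its link to the timing of ovulation and to steroid synthesis.

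Across the libraries the smallest steps between table values correspond to approximately 24.7 to 40.7 M reads (M, mega), with a median of 30.28 M, and r between replicate libraries was 0.908 to 0.98. Defining ovarian markers were present in each group. The summed level of 7 granulosa cell genes was 1892 to 5506 CPM and that of 7 oocyte genes 127 to 524 CPM. Steroid-producing corpus luteum genes varied widely, with 6 genes summing to between 852 and 37013 CPM. The libraries of DiNP 100 replicate 3 at 3 months and DEHP 200 replicate 2 at 0 months stood apart from their groups, with limma array weights of 0.198 and 0.222, the lowest of the 30.

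All 10 clock genes were expressed in every library. Per kilobase of exon in the vehicle group at 0 months, Nr1d2 (27.3 ± 4.32 CPM per kb, SD, n = 3), Nr1d1 (24.6 ± 3.46) and Dbp (22.8 ± 3.41) were the highest, and neighbours in this order differed by less than their SDs. Per1 followed at 12.7 ± 3.15, ahead of Clock at 7.56 ± 1.12, Cry1 at 7.53 ± 0.619 and Cry2 at 6.37 ± 0.265 CPM per kb. The lowest were Per3 (3.44 ± 0.697), Per2 (2.60 ± 0.153) and Arntl (2.06 ± 0.283 CPM per kb). The lengths are the union of annotated exons, so a gene whose ovarian transcripts use only some exons is understated.

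Nr1d1 and Dbp, direct targets of the ARNTL and CLOCK pair, varied most of the 10 between libraries of the same group. The within-group SD was 0.46 log2 for Nr1d1 and 0.43 for Dbp, more than for 81.9% and 78.6% of all genes tested. Per2 came next at 0.39. Arntl, Per3, Cry1, Per1, Clock and Nr1d2 lay between 0.22 and 0.27, near the middle of all genes. Cry2, the CRY paralog, was the most even of the 10 at 0.15 log2, with 18.1% of genes below it. The range over 30 libraries was 3.5 to 5.12 for Per2, the widest of the 10, 5.34 to 6.92 for Nr1d1, 5.49 to 7.0 for Dbp and 5.18 to 5.66 for Cry2.

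**Figure D1:**
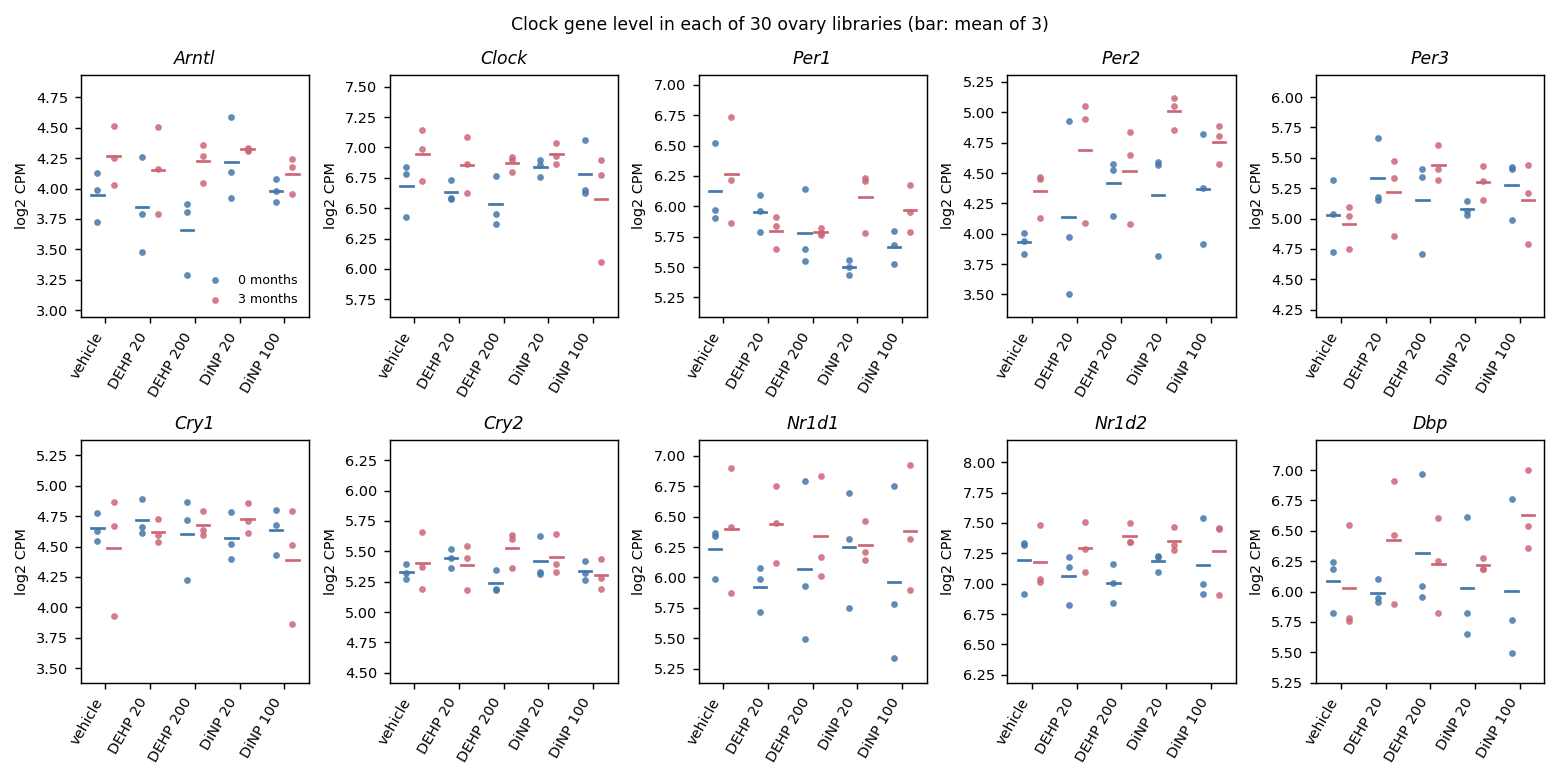
Level of each clock gene (log2 CPM, vertical axis spanning 2 units in each panel) in the 5 treatments (horizontal axis, doses in ug/kg/day) at 0 months (blue) and 3 months (red). Points are single libraries and bars are means of 3; Per2, Nr1d1 and Dbp are spread over more than 1.5 log2 units, and Cry2 over 0.48.

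The 10 genes lie on 8 chromosomes of GRCm38.p6, with Per1 and Nr1d1 both on chromosome 11 and Arntl and Dbp both on chromosome 7. RefSeq places Per1 at chr11:69095108-69109965 and Nr1d1 at chr11:98767932-98775377. Promoter windows, from 250 bases before to 50 after a start site in RefSeq's GRCm38.p6 models, were matched for 9 of the 10 genes. The stretches shown here are the 250 bases before an annotated start site of the genes on which the results below turn. They run 5′ to 3′ on the strand of the gene, with matches to the searched motifs in capitals. Per1 has 2 windows, both inside its span given above, and the first is shown. The motifs were the E-box CACGTG, its variant CACGTT, the D-box TTANGTAA, the nuclear receptor core AGGTCA and the cAMP response core TGACG, each on both strands. TGACGTCA, the full cAMP response sequence that contains TGACG on both strands, matched no window of these genes.
Per1 (chr11:69098699-69098948, plus strand): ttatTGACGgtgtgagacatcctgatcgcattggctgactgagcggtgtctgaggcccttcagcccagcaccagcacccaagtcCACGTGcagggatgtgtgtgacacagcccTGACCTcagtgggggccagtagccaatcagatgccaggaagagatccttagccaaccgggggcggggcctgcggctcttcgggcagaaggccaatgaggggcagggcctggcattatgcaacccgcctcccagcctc
Cry1 (chr10:85185055-85185304, minus strand): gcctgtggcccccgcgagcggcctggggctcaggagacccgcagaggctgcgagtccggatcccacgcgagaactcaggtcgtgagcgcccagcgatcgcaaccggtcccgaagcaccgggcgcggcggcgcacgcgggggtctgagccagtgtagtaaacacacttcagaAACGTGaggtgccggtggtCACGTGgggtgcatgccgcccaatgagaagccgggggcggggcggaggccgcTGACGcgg
Nr1d1 (chr11:98775378-98775627, minus strand): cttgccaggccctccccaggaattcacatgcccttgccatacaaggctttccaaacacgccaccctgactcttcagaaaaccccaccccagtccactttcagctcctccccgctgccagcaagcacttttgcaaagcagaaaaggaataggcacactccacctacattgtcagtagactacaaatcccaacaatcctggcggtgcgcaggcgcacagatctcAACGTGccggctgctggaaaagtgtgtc
Per3 (chr4:151044666-151044915, minus strand): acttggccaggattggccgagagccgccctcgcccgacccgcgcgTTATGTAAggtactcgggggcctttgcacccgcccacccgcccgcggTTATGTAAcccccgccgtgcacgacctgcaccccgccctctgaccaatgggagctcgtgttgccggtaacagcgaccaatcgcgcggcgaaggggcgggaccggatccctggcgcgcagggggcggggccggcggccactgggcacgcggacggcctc

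The E-box was found in Per1, 166 bases before the first annotated start site, and in Cry1, 60 bases before the start. It was in no other of the 9 genes, and not in the second window of Per1. It occurs in 7.15% of all 32851 promoter windows of this length. The variant CACGTT lay 28 bases before the start of Nr1d1, 79 before that of Cry1 and 166 before that of Cry2, against 4.68% of all windows. Per3 had a pair of D-boxes, 205 and 158 bases before the start, against 2.32% of windows with any. The nuclear receptor core, the kind of sequence that REV-ERB and ROR proteins read, is in 16.3% of windows. It lay 137 bases before the first annotated start of Per1, 77 before the start of Nr1d2 and 119 before the third annotated start of Clock. The cAMP response core was found in Per1, Cry1 and Cry2, against 20.8% of windows. In Arntl the nuclear receptor core AGGTCA stood 32 bases after the second annotated start site:
Arntl (chr7:113207530-113207559, plus strand): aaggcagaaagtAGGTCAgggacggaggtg
A match describes these letters only, and a window of this length does not hold the distal elements of these genes.

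Treatment was asked about at each time point against the vehicle libraries of that time. No clock gene passed an adjusted p of 0.05 (limma over 14740 genes, Benjamini-Hochberg) in any of the 8 comparisons. The share of all genes called was 0% in each of them, so the 10 genes did not differ from the rest in this. The lowest adjusted p of a clock gene was 0.914 at 0 months and 0.518 at 3 months. At an unadjusted p under 0.05, 7 of the 80 differences remained, 4 of them in Per1. The other 3 were Per2, Per3 and Clock, each in 1 comparison at 3 months. The share of all genes at that threshold at 0 months was 2.37% and 5.02% for the lower and higher dose of DEHP, and 2.08% and 1.75% for those of DiNP. At 3 months it was 1.68% and 1.44% for DEHP and 1.52% and 9.28% for DiNP.

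Per1, an inhibitor of the loop that also responds quickly to hormonal signals, had its highest mean in vehicle at both times. At 0 months the vehicle libraries measured 5.90, 5.97 and 6.52, and the DiNP 20 libraries 5.44, 5.56 and 5.50. Those of DiNP 100 measured 5.52, 5.68 and 5.80. Neither DiNP group overlapped vehicle, which held for 9.73% and 8.31% of all genes in these comparisons. Mean Per1 was -0.63 ± 0.19 (SE) log2 from vehicle with DiNP 20 and -0.46 ± 0.19 with DiNP 100, both with an adjusted p of 1.0 (limma). DEHP 20 at 5.97, 6.10 and 5.79 and DEHP 200 at 5.55, 6.14 and 5.65 overlapped vehicle. Their differences were -0.18 ± 0.19 and -0.35 ± 0.19 log2.

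At 3 months the vehicle libraries had Per1 at 5.86, 6.22 and 6.73. DEHP 200 lay below them at 5.78, 5.83 and 5.77 (-0.48 ± 0.19 log2, adjusted p = 1.0, limma), without overlap as for 5.27% of genes. DEHP 20 measured 5.65, 5.91 and 5.83, a difference of -0.47 ± 0.19 (adjusted p = 1.0, limma), and its highest library passed the lowest of vehicle. The DiNP groups differed by -0.19 ± 0.19 (DiNP 20) and -0.30 ± 0.19 log2 (DiNP 100). The F test over the 5 groups gave Per1 an adjusted p of 1.0 at 0 months and 0.957 at 3 months (limma). At an unadjusted p under 0.05 it held 1 clock gene, Per1, at 0 months (2.20% of all genes) and 0 at 3 months (3.99%).

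Mean Per1 was thus below vehicle in 8 of 8 treated groups, a pattern shared by 3.53% of genes. The 4 comparisons at a time share the same 3 vehicle libraries and are not independent. Replicate 3 was the highest vehicle library at both times. Without that of 0 months 7 of 8 means were below, with DEHP 20 at 0.02 log2. Without that of 3 months 7 of 8 were below, with DiNP 20 at 0.04 log2.

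Its paralogs went the other way in the means. Per2, the PER protein most closely tied to the inhibitory step, was above vehicle in 8 of 8 treated groups, by 0.17 to 0.66 log2, and Per3, whose product is the most dispensable of the family for rhythm, by 0.05 to 0.49. All 8 means were above vehicle for 3.24% of genes. At 0 months the vehicle libraries had Per2 at 3.94, 4.01 and 3.84, a narrow range, while DEHP 20 spread from 3.5 to 4.93. At 3 months, vehicle had Per2 at 4.13, 4.45 and 4.46 and DiNP 20 at 5.12, 5.05 and 4.86. DiNP 20 was clear of vehicle there (0.66 ± 0.30 log2, adjusted p = 1.0, limma; 6.07% of genes did not overlap). Per3 in DEHP 200 at 3 months (5.6, 5.32 and 5.41, against 5.02, 4.75 and 5.10) was 0.49 ± 0.20 log2 above vehicle (adjusted p = 1.0, limma). With any single vehicle library left out, Per2 stayed above vehicle in 8 means. Per3 fell to 6 of 8 without vehicle replicate 1 at 0 months.

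Clock, the partner of ARNTL, was -0.38 ± 0.17 log2 from vehicle with DiNP 100 at 3 months (adjusted p = 0.518, limma). Its libraries were 6.77, 6.89 and 6.05 against 6.72, 6.98 and 7.15 in vehicle, and the low value is the library of the lowest array weight. Arntl lay between -0.29 and 0.27 log2 from vehicle in the 8 comparisons, with SE 0.21 in each. Nr1d1 lay between -0.31 and 0.04 (SE 0.35), Nr1d2 between -0.19 and 0.22 (SE 0.17), Cry1 between -0.10 and 0.24 (SE 0.21), and Cry2 between -0.10 and 0.13 (SE 0.12). Dbp was highest in DiNP 100 at 3 months (7.0, 6.36 and 6.54), 0.60 ± 0.33 log2 above vehicle (5.78, 5.76 and 6.55). None of these differences exceeded the spread between libraries by the test, and a p that misses the threshold does not show that levels were equal.

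**Figure D2:**
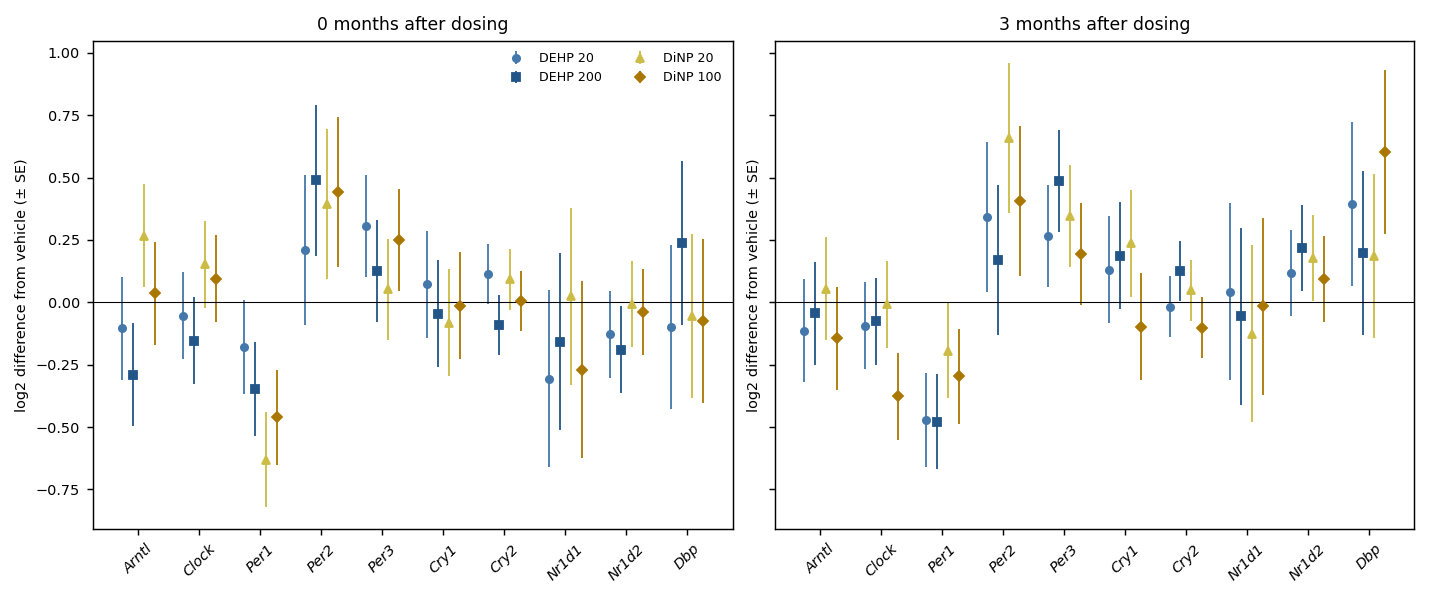
Difference of each treated group from the vehicle group of the same time (log2, vertical axis; points with SE from limma) for the 10 clock genes at 0 months (left) and 3 months (right). Per1 points lie below 0 and Per2 and Per3 points above 0 at both times; none passed an adjusted p of 0.05.

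Compounds and doses were also compared directly. DEHP and DiNP share the dose of 20 ug/kg/day, and 0 of the 10 genes was called between them at either time, as were 0% of all genes. Per1 was 0.45 ± 0.19 log2 higher with DEHP 20 than with DiNP 20 at 0 months (95% interval 0.06 to 0.84, adjusted p = 1.0, limma). These libraries did not overlap, as in 9.57% of genes, and at 3 months the difference was -0.28 ± 0.19 (interval -0.67 to 0.11). At an unadjusted p under 0.05 Per1 was the 1 clock gene at 0 months (2.05% of all genes) and 0 were at 3 months (2.90%). Between the higher and lower dose of a compound 0 genes were called (background 0%). Unadjusted, 1 clock gene was under 0.05, Clock in DiNP 100 against DiNP 20 at 3 months (-0.37 ± 0.17 log2; 12.2% of all genes). In the other dose comparisons 0 were (3.95% of all genes for DEHP and 0.583% for DiNP at 0 months, 0.957% for DEHP at 3 months). Intervals were wide: for Nr1d1 at the shared dose they ran from -1.06 to 0.40 log2 at 0 months and from -0.57 to 0.90 at 3 months. The change from 0 to 3 months in each treated group, set against that in vehicle, called 0 of 10 clock genes and 0% of all genes, with 0 clock genes at an unadjusted p under 0.05 in each (1.96% and 2.54% of all genes for DEHP 20 and 200, 1.49% and 2.33% for DiNP 20 and 100).

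More genes passed the test for time than for treatment, but the tests differ in size. Time set the 15 libraries of 3 months against the 15 of 0 months, and each treatment comparison set 3 libraries against 3. Age and time after dosing go together in this design, and the hour of collection is not given. Their parts in a difference between the times cannot be told apart. Over the mean of the 5 treatments, Arntl and Per2 rose from 0 to 3 months, and the other 8 genes did not pass the test. Arntl libraries had a lowest, median and highest level of 3.29, 3.92 and 4.59 at 0 months and of 3.79, 4.25 and 4.52 at 3 months. The 2 time points overlapped, and mean Arntl was 0.29 ± 0.09 (SE) log2 higher at 3 months (4.22 against 3.93, adjusted p = 0.0309, limma). Per2 libraries ran from 3.5 over a median of 4.15 to 4.93 at 0 months and from 4.08 over 4.81 to 5.12 at 3 months. Its mean was 0.43 ± 0.13 log2 higher (4.67 against 4.24, adjusted p = 0.0277). The 2 of 10 called compare with 20.3% of all genes tested, 10.6% higher and 9.63% lower. Calls in either direction were thus no more frequent among the clock genes than among all genes. Unadjusted, 3 of 10 were under 0.05, against 35.1%.

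The count depends on single libraries. The call of Arntl was lost without any 1 of replicate 2 of vehicle at either time, replicate 2 at 0 months or 3 at 3 months of DEHP 20, replicate 1 of DEHP 200 at 3 months, or replicate 3 of DiNP 20 at 0 months. That of Per2 was lost without replicate 2 of DEHP 20 or replicate 3 of DEHP 200 at 3 months. The count was 0 without DEHP 200 replicate 3 or without DiNP 100 replicate 1 at 0 months, where 2243 and 2274 of all genes were called against 2986 with all libraries. It was 4 without DiNP 100 replicate 3 at 3 months, with 3085 genes called. Without both libraries that stood apart it was 6 (Arntl, Clock, Per1, Per2, Nr1d1 and Nr1d2), with 4418 genes called, and with the limma array weights 7, with 6660 genes called.

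The direction was shared more widely than the calls. At 3 months the mean was above that at 0 months for 9 of the 10 genes, with a median difference of 0.18 log2, against 0.003 over all genes tested. Nr1d2 differed by 0.18 ± 0.08 (adjusted p = 0.0998), Nr1d1 by 0.28 ± 0.16 (0.218), Dbp by 0.22 ± 0.15 (0.295), Per1 by 0.18 ± 0.08 (0.143) and Clock by 0.15 ± 0.08 log2 (0.184). Cry2 and Per3 differed by 0.06 and 0.04. Cry1 was the gene below 0, at -0.06 ± 0.10 (adjusted p = 0.716).

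Within single treatments the 3 month difference of Arntl was 0.32 in vehicle, 0.31 and 0.57 with DEHP 20 and 200, and 0.11 and 0.14 log2 with DiNP 20 and 100. That of Per2 was 0.42, 0.56, 0.10, 0.69 and 0.39 log2 in the same order. All of these were above 0, and none was called with 3 libraries against 3; the share of genes called was 0.00678% in vehicle, 0.0204% and 0.0136% with DEHP 20 and 200, and 0.0204% and 0.0475% with DiNP 20 and 100. At an unadjusted p under 0.05 DEHP 200 had 3 clock genes (11.7% of all genes) and DiNP 20 had 2 (7.75%). Vehicle, DEHP 20 and DiNP 100 had 0, against 7.98%, 10.8% and 18.9% of all genes. The difference in Arntl was clearest with DEHP 200, from 3.81, 3.87 and 3.29 to 4.36, 4.05 and 4.27 without overlap, as for 12.6% of genes (adjusted p = 0.349, limma). Per1 was apart in DiNP 20, where the low 0 month libraries gave way to 5.78, 6.24 and 6.21 (0.58 ± 0.19 log2, adjusted p = 0.361, limma; 16.1% of genes did not overlap).

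Other clock genes, from a list of 25 of which 23 were above the minimum level, changed with time as well. Of the 23, 5 rose and 2 fell (20.3% of all genes were called), and the median difference was 0.08 log2. Bhlhe40, a repressor that competes for E-boxes and also responds to hypoxia and hormones, had the largest difference of these, at 1.39 ± 0.34 log2 (7.57 against 6.19, adjusted p = 0.00786, limma). It was 1.41 higher in vehicle and 0.84 to 1.61 higher in the 4 treated groups. Among the others that rose were Por, encoding the electron donor of cytochrome P450 enzymes (0.41 ± 0.08), Nampt, an enzyme of NAD synthesis (0.37 ± 0.12), and Hlf, a relative of Dbp (0.29 ± 0.10). Ciart, a repressor of the ARNTL and CLOCK pair, fell by 0.40 ± 0.14 (adjusted p = 0.045), and Timeless, a replication fork protein, fell by 0.40 ± 0.09 log2 (adjusted p = 0.00545). In the 8 comparisons of treatment with vehicle, 0 of the 23 were called.

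**Figure D3:**
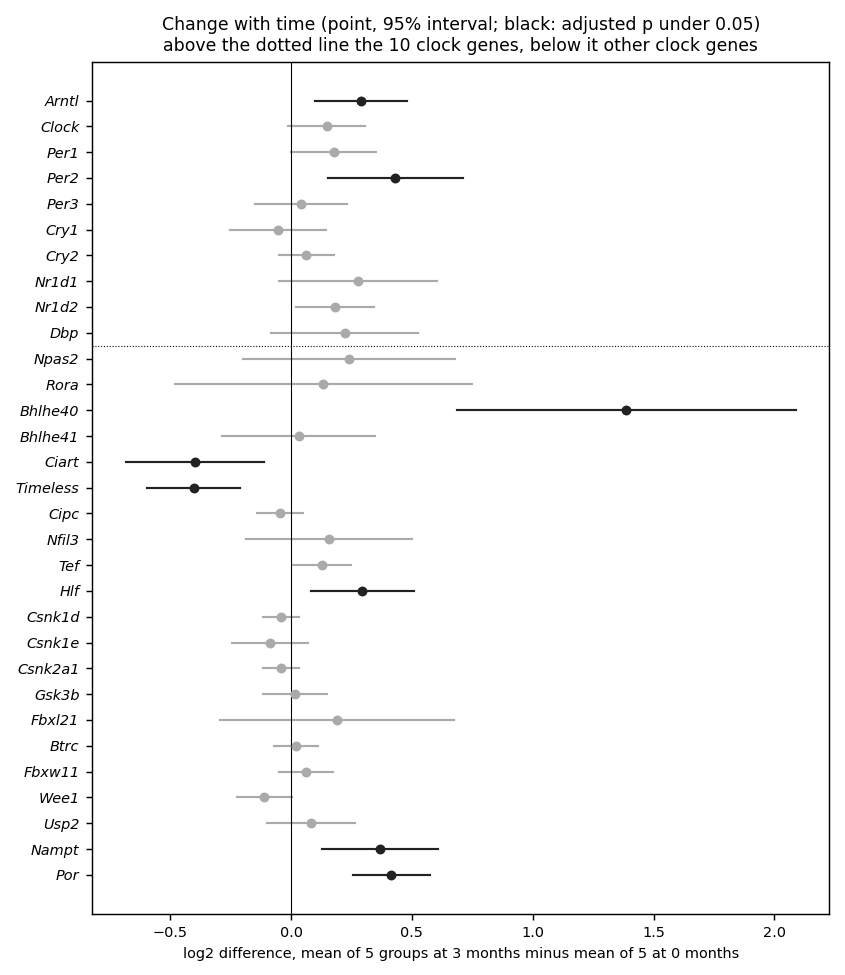
Difference between 3 and 0 months (log2, horizontal axis; mean of 5 groups at 3 months minus mean of 5 at 0 months, with 95% interval from limma) for the 10 clock genes (top) and other clock genes (bottom). Black marks an adjusted p under 0.05: Arntl and Per2 at the top, and Bhlhe40, Por, Nampt, Hlf, Timeless and Ciart at the bottom.

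Levels of cell type markers moved with time too, in a comparison where 10.6% of all genes were called higher and 9.63% lower. Of granulosa markers 6 of 7 fell, of oocyte markers 7 of 7 and of theca markers 3 of 4, with median differences of -0.51, -0.77 and -0.36 log2. Macrophage markers rose in 4 of 4 (median 0.68), and corpus luteum markers had a median of 0.95 log2 with 1 of 6 called higher. Summed granulosa marker levels were 2521 to 5506 CPM at 0 months and 1892 to 3916 CPM at 3 months. Of 9 immediate early genes, which mark acute stimulation, 1 rose, and of 5 glucocorticoid targets 0 changed. The part of these shifts in the rise of Arntl and Per2 was not tested, and in whole ovaries fewer cells of a type and less RNA per cell cannot be told apart.

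Agreement among the clock genes was examined from library to library, after removal of the 10 group means. Over the 30 libraries 17 of 45 pairs of genes passed an adjusted p of 0.05 by Pearson r (permutation within groups, 100000 draws, two-sided). Fewer passed by Spearman rho. Of the 17, Clock with Cry2, Per1 with Nr1d1 and Dbp, Per2 with Dbp, and Cry1 with Nr1d1 and Dbp did not. Their adjusted p by rho was 0.0519 to 0.123 (permutation). The share of pairs among all genes that would pass was not computed. Of all other genes tested, 25.5% had an r past 0.5 in size with Dbp and 21.4% with Nr1d1. Outside the clock genes, r with Dbp reached 0.907 (Lrrn3). Nr1d1 and Dbp formed the closest of the 45 pairs, at r = 0.868 and rho = 0.828 (p = 5.0e-05 for each, adjusted p = 0.0018 and 0.00225, permutation). This pair held at r = 0.932 among the 15 libraries of 0 months and 0.772 among those of 3 months. It gave 0.778 without the 2 libraries farthest from the median in Nr1d1. The high libraries were the same ones for both genes. In DEHP 200 at 0 months, replicate 2 had Nr1d1 at 6.80 and Dbp at 6.97, while replicates 1 and 3 had 5.93 and 5.49 for Nr1d1 and 5.96 and 6.04 for Dbp. In DiNP 100 at 0 months, replicate 3 had 6.75 and 6.76 against 5.34 to 5.78 in the others.

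Nr1d2 joined them, at r = 0.71 with Nr1d1 and 0.67 with Dbp. Clock correlated with Nr1d2 at 0.709 (adjusted p = 0.022) and with Nr1d1 at 0.578 (adjusted p = 0.0451, permutation). Per1 correlated with Nr1d2, Nr1d1 and Dbp at 0.602, 0.559 and 0.55. Per2 correlated with Dbp at 0.508 and with Clock at 0.397, and Per3 with Cry2 at 0.568. Of the called pairs, the 13 without Cry1 had a positive r.

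Cry1 ran against several of the others, while its r was only -0.02 with Per2 and -0.13 with Per3. Its r was -0.738 with Nr1d2 (rho = -0.745, p = 8.0e-05, adjusted p = 0.0018), -0.713 with Per1 (rho = -0.604, p = 0.00172, adjusted p = 0.0129), -0.647 with Nr1d1 and -0.522 with Dbp, all by permutation. The opposition to Nr1d2 held at -0.713 among 0 month libraries and -0.789 among 3 month libraries. It was -0.708 without the 2 libraries farthest from the median in Cry1. Without those 2 libraries r was -0.538 with Nr1d1 and -0.357 with Dbp (unadjusted p = 0.0575 and 0.208, permutation). With Per1 it was -0.579 without the 2 libraries farthest in Per1. In vehicle at 3 months, replicate 3 had the lowest Cry1 of its group (3.93 against 4.87 and 4.67) and the highest Per1, Nr1d1, Nr1d2, Dbp and Clock. Per1 and Cry1 are the genes with the E-box shown above, and they moved in opposite directions. Cry1 is known to peak later in the cycle than Per1 in tissues where both have been timed. The hour of collection is not known here. Its part in these correlations, and that of cell make-up, was not tested.

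Arntl, the gene on which the loop turns, was in none of the called pairs. Its r was 0.04 with Dbp, 0.21 with Nr1d1, -0.14 with Nr1d2 and 0.20 with Clock, and the largest in size was -0.35 with Per3 (adjusted p = 0.242, permutation). Low Arntl libraries did not mark high Nr1d1 or Dbp libraries. The lowest, DEHP 200 replicate 3 at 0 months (3.29), also had a low Nr1d1 (5.49).

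These pairs rest on all 30 libraries together. Within 15 libraries of 1 time, 0 pairs at 0 months and 1 at 3 months (Per3 with Cry2, r = 0.816) passed the same adjustment, although each of the 17 kept its sign at both times. Without the 2 libraries farthest from the median in the first gene of a pair (in the order of the opening), 5 of 45 were called. They include Per3 with Nr1d2, which was not among the 17. Without the pair of libraries that stood apart 10 were called. Single libraries moved the count too: 6 pairs were called without DiNP 100 replicate 3 at 0 months or without vehicle replicate 3 at 3 months, 9 without DiNP 100 replicate 3 at 3 months, and 10 without DEHP 200 replicate 2 at 0 months.

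**Figure D4:**
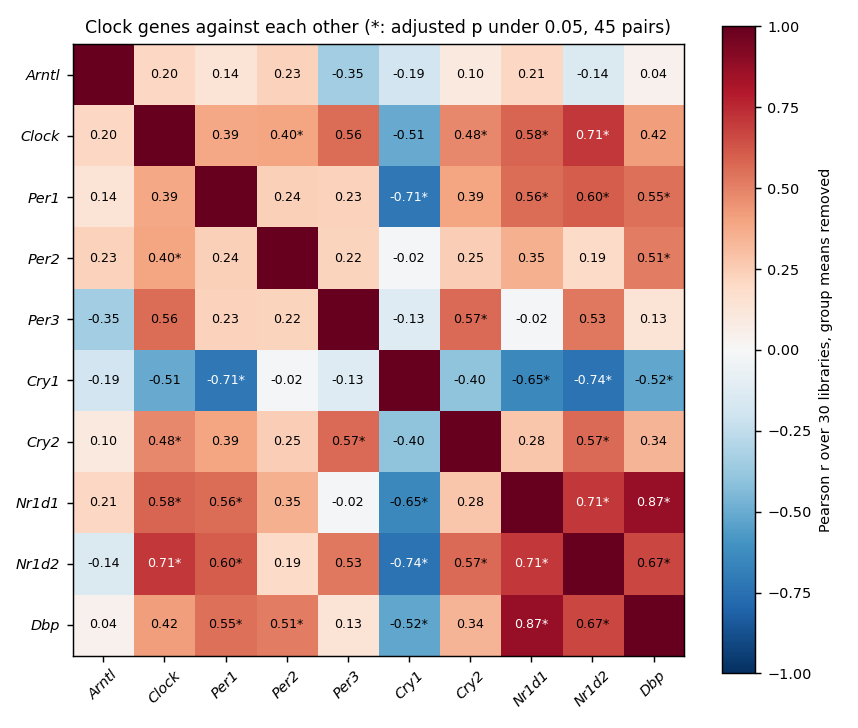
Pearson r between clock genes over 30 libraries after removal of group means (both axes list the genes; red positive, blue negative; asterisks mark adjusted p under 0.05 over 45 pairs). Cry1 has a negative r with each of the other 9, Nr1d1, Nr1d2 and Dbp form a red block, and Arntl has no asterisk.

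**Figure D5:**
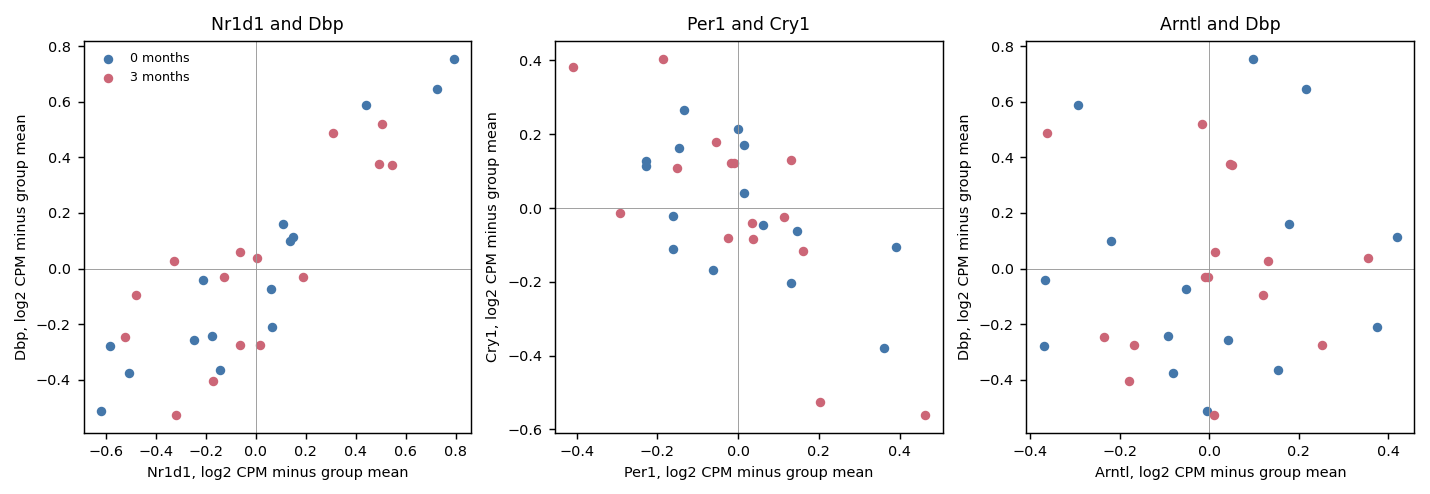
Libraries by their deviation from the group mean (log2 CPM, both axes; blue 0 months, red 3 months) for Nr1d1 and Dbp (left, r = 0.868), Per1 and Cry1 (middle, r = -0.713) and Arntl and Dbp (right, r = 0.04). The left panel rises, the middle one falls, and the right one shows no slope.

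Some clock genes also moved with the levels of cell type markers from library to library. Of 130 relations between a clock gene and the mean level of a marker list, 20 passed (permutation, adjusted p under 0.05). The share that would pass for other genes was not computed. Theca markers were lower where Dbp (r = -0.80, adjusted p = 0.013), Nr1d1 (-0.741), Nr1d2 (-0.735) and Clock (-0.689) were higher. Cry1 took the other sign with theca (0.625), oocyte (0.72) and granulosa markers (0.588), and was lower where corpus luteum markers were higher (-0.573). Arntl passed with corpus luteum markers, at r = 0.607 (adjusted p = 0.0345; 0.699 at 0 months and 0.394 at 3 months). Its r with endothelial markers was nearly as large, at 0.591, and did not pass (adjusted p = 0.0567, permutation). Per3 and Cry2 rose with markers of oviduct epithelium (r = 0.692 and 0.644), a tissue next to the ovary whose 3 markers summed to between 1.90 and 139 CPM. The part of cell make-up in the correlations between clock genes was not tested.

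Among other clock genes, tested against Arntl, Nr1d1 and Dbp in 69 relations, Rora, encoding an activator that shares its sites with REV-ERB, followed Dbp (r = 0.774, adjusted p = 0.0069) and Nr1d1 (0.748). Ciart was lower where Arntl was higher (-0.634, adjusted p = 0.0069), and Npas2, which can replace CLOCK as partner of ARNTL, was higher there (0.506, adjusted p = 0.0324). Ciart was thus lower where Arntl was higher both between the times and between libraries of a group. Arntl and Npas2 gave r = 0.513 at 0 months and 0.549 at 3 months. The share of all genes that would pass against Arntl, Nr1d1 or Dbp was not computed.

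Genes with the most similar pattern were taken from all 14740 tested, as a description over 30 libraries that differ in depth and in cell type marker levels. The part of these differences in the similarity was not tested. For Arntl these were Plekhm2 (r = 0.841), Aplp1 (0.837) and Rprd1a (0.784), and the most opposite were Zfp873 (-0.779), A930004D18Rik (-0.75) and Gm4926 (-0.727). For Nr1d1 they were Xpnpep2 (0.894), Lrrc59 (0.867) and Lrp8 (0.865), and for Dbp Lrrn3 (0.907), Jade1 (0.893) and Slc35e3 (0.889). For Per1 they were Rps19-ps3 (0.733), a pseudogene whose counts can be shared with its parent, Vamp7 (0.731) and Rhbdd1 (0.705). The share of other genes past an r of 0.5 in size was 25.5% for Dbp and 21.4% for Nr1d1, against 8.47% for Arntl and 7.87% for Per1.

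Neighbouring genes limit some of these values. Nr1d1 overlaps the 3′ end of Thra, the thyroid hormone receptor alpha gene, on the opposite strand over 1075 bases (chr11:98767932-98769006). The residuals of the pair were opposed (r = -0.808, rho = -0.784, p = 0.00021, permutation over 30 libraries). The libraries were stranded, but the strand setting of the counting is not given in the sources used here, so a sharing of reads was not tested. Dbp overlaps Sphk2 on the opposite strand over 737 bases (r = 0.30). Per3 lies within the annotated span of Camta1 on the same strand (r = -0.08).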

How the data were processed

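Messenger RNA was measured in 30 libraries of mouse ovary, 3 per group. Per the labels' protocols, RNA came from flash frozen whole ovaries, and libraries were stranded and read from 1 end on an Illumina instrument. Per the submitters' processing notes, the tools were Salmon 0.11.3 and edgeR (its version is not given in the sources used here) under R 3.5.2, with FastQC 0.11.8, and the build was GRCm38.p6. All levels come from a log2 CPM table made and deposited by the authors, used as it stands. Back-transformed columns summed to 907668 to 1164842 CPM, and the lowest value was -3.34 log2. Read counts were not recovered: 13.6 to 31.3% of low values were whole reads within 0.05, so depths are approximate and no count test was run.

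Genes with a mean above 0 log2 CPM entered a linear model of all 30 libraries with a mean for each group (limma 3.58.1 under R 4.3.3; statmod 1.5.0 for the block), 20 residual degrees of freedom and a mean-dependent prior variance (2.85 degrees). Benjamini-Hochberg adjustment was over 14740 genes within each comparison, with calls under 0.05. Correlations used residuals from group means and 100000 permutations within groups in Python 3.11.15, adjusted over 45, 130 or 69 relations. Coordinates and promoters are from RefSeq and exon lengths and overlaps from GENCODE vM21, both on GRCm38.p6; promoters of 9 of 10 genes were matched. The fits and the permutation test were checked on simulated data.

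The clock genes and all lists were chosen with earlier results of these data known. All 10 clock genes are named. Of the 25 other clock genes (partners and second arm, kinases and ubiquitin ligases, outputs) those called are named, except that 2 genes of the list are counted but not reported here. Similar genes are the 3 of highest r for Arntl, Nr1d1, Dbp and Per1, and for Arntl the 3 of lowest r. Marker lists were granulosa, theca, corpus luteum, oocyte, ovarian surface, macrophage, endothelium, smooth muscle, oviduct epithelium and adipose, with immediate early, glucocorticoid and ovulatory genes. Alternatives were median centring, quantile normalization, filters, an added pseudocount, priors, array weights, a replicate block, fits of the compared groups alone, a threshold of 0.10 and leaving out each library.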

Additional observations from a re-analysis of the deposited data

How the results depend on the processing

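Under 12 alternatives other than leaving out a single library, Arntl and Per2 kept their direction and call for time. The looser threshold of 0.10 could not lose these calls. Fitting the compared groups alone repeats the same fit, because this comparison uses all 10 groups. The counts of clock genes called stayed at 0 for treatment against vehicle at both times, compound, dose, change with time against vehicle, vehicle alone over time, and the F tests, also with each of the 30 libraries left out. The counts for time moved with array weights: 7 over the mean of treatments and 4 (Per2, Cry1, Nr1d1 and Dbp) over the 4 treated groups taken singly. With these weights more of all genes were called over the mean too, as given above. The share of all genes called in the single groups with these weights is not given here, so the 4 cannot be set against it. At an adjusted p under 0.10 the first was 3, with Nr1d2 added, and 4323 genes were called. Without the 2 libraries of lowest weight, left out after the weights were seen, the first was 6. Array weights were estimated gene by gene, because the default estimate did not converge; this too was chosen after seeing the data, as were the signs of Per1, Per2 and Per3 without each vehicle library. Leaving out each library gave 0 to 4 called for time over the mean. The Arntl difference ran from 0.25 to 0.33 log2 (adjusted p 0.0134 to 0.0605, lost in 8 of 30) and that of Per2 from 0.37 to 0.51 (adjusted p 0.00624 to 0.0542, lost in 4 of 30), by limma.

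Correlated pairs by Pearson r numbered 17, and 0 at 0 months alone and 1 at 3 months alone. There were 5 without the 2 libraries farthest from the median in the first gene of a pair, and 10 without the 2 of lowest weight. Leaving out each library in turn gave 6 to 17. Within 1 time point there are fewer libraries to test. Group labels share replicate numbers, but same-numbered libraries did not deviate together: the median r of their residuals was -0.03 at 0 months and -0.07 at 3 months, with 11 and 8 of 30 pairs above 0.1, and 6 and 4 of 15 libraries agreed best with their own number. With a replicate block 2 clock genes were called for time and 0 in the other comparisons, and 2678 genes against 2986. The median change of all genes over time was 0.003 log2 as deposited and -0.02 after quantile normalization. Depth is known only approximately, and 3 libraries per group limit what single comparisons can show.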

Other observations

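Other ovarian lists were described beside the clock genes. Over time, endothelial markers had a median difference of 0.11 log2 with 0 of 4 called, smooth muscle markers -0.32 with 2 of 4 called lower, and adipose markers -0.58 with 0 of 3 called. Ovarian surface markers had a median of -0.09 with 0 of 5 called, oviduct markers 0.97 with 0 of 3 called, and ovulatory genes -0.01 with 0 of 5 called of the 7 listed. The share of all genes called was 20.3%.

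Several further relations between clock genes and lists passed the permutation test over 30 libraries. Dbp was lower where immediate early genes were higher (r = -0.594, adjusted p = 0.0204), and Clock was higher where endothelial markers were higher (r = 0.685, adjusted p = 0.0204). Nr1d2 was opposed to granulosa markers (r = -0.70, adjusted p = 0.013). Csnk1d, a kinase that marks PER for degradation, was lower where Dbp was higher (r = -0.68, adjusted p = 0.0319), and Bhlhe41 was higher where Nr1d1 was higher (r = 0.56, adjusted p = 0.0397).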
